A study of Mus musculus with 14 samples.

Results

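The genes described here are 35 aminoacyl-tRNA synthetase genes, of 35275 genes measured, in brown adipose tissue of mice with and without Lrpprc. They were taken by symbol from a list and matched to Ensembl identifiers. The 19 cytosolic enzymes are Aars, Cars, Dars, Eprs, Farsa, Farsb, Gars, Hars, Iars, Kars, Lars, Nars, Qars, Rars, Sars, Tars, Vars, Wars and Yars. The 16 mitochondrial enzymes carry symbols ending in 2, from Aars2 to Yars2. All 35 were in the table and all 35 passed the filter on low values.

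RNA was sequenced from homogenised brown fat of 14 C57BL/6 mice aged 8 weeks. All animals carried Lrpprc alleles written LrpprcFF, including the controls. Knockouts also carried Ucp1-Cre, a recombinase driven by the promoter of the thermogenic gene Ucp1, so that deletion is directed to brown adipocytes and other cells of the tissue keep the gene. At room temperature (22 °C) there were 4 controls and 4 knockouts, and at thermoneutrality (30 °C) 3 controls and 3 knockouts. Each library carries its own animal identifier, and p-values measure the spread between these libraries. Brown adipocytes are given as the cell type, but no step that isolates cells is described.

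A tRNA synthetase joins an amino acid to its tRNA and so supplies charged tRNA to the ribosome. Cells have a cytosolic set for the products of nuclear genes and a mitochondrial set, also encoded in the nucleus and imported, for the few proteins made inside mitochondria. Lrpprc binds and stabilises mitochondrial messenger RNA, and mitochondrial faults are known to raise the transcription factor ATF4, whose known targets include many cytosolic synthetases. The question for these genes was whether the enzymes of both compartments moved together when Lrpprc was deleted, and whether housing temperature changed that.

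Lrpprc itself was lower in knockouts, at 10.4 against 42.3 scaled FPKM at 22 °C (log2 fold change -1.86, SE 0.21, limma adjusted p = 0.000374). At 30 °C it was at 6.98 against 31.7 (log2 fold change -2.06, SE 0.25, limma adjusted p = 0.000377). Scaled FPKM is the deposited value, normalised for gene length and depth by the authors, rescaled so that the median nuclear gene is level across libraries. Depth was 15.9 to 21.3 M fragments per library. All 12 listed brown adipocyte markers were measured in the libraries, and so were all 12 macrophage, 11 of 12 skeletal muscle and all 6 endothelial and all 6 fibroblast markers past the filter. No listed marker of these types was at 0 in every library. Temperature and sex-linked expression cannot be told apart here: Xist was at most 0.0139 scaled FPKM in every 22 °C library and 9.7 to 15.3 in the 30 °C libraries. The Y-linked gene Ddx3y was at 16.3 to 23.9 at 22 °C and at most 0.0242 at 30 °C.

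In controls at 22 °C the cytosolic enzymes had mean levels per length from 7.63 scaled FPKM (Cars, cysteine) to 64.3 (Gars, glycine). Gars was followed by Kars (lysine) at 43.5 ± 2.06 and Nars (asparagine) at 36.1 ± 4.25 scaled FPKM (SD, n = 4 each). Gars and Kars each encode both the cytosolic and the mitochondrial form of their enzyme, so they are cytosolic here by symbol. Among the mitochondrial enzymes the highest was Lars2 (leucine), at 209 ± 185 scaled FPKM (SD, n = 4). Next came Iars2 (isoleucine) at 36.7 ± 9.63 and Fars2 (phenylalanine) at 32.6 ± 4.3 scaled FPKM (SD, n = 4 each), which do not differ beyond their spread. Mars2 (methionine), Ears2 (glutamate), Wars2 (tryptophan), Pars2 (proline) and Nars2 (asparagine) were under 5 scaled FPKM in that group. The weakest, Mars2, was at 1.24 ± 0.415 (SD, n = 4). The depth amounts to an estimated 118 to 332 fragments of Mars2 per library and 6024 to 32281 of Eprs. Log2 fold changes below are of scaled FPKM plus 1, which understates changes in the weak genes.

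Promoters of the synthetases were searched for TGATGNAA on either strand, the composite element bound by ATF4 with C/EBP partners. RefSeq promoters of GRCm38.p6 (250 bases before to 50 after a start) were at hand for 12 cytosolic and 14 mitochondrial enzymes. The element was in 5 of the 12 cytosolic promoters (41.7%), those of Aars, Gars, Iars, Tars and Yars, and in 0 of the 14 mitochondrial ones. Of all 27025 genes with a promoter entry, 1219 held it (4.51%). Among 11 ATF4 pathway genes with an entry, it was found for Asns, Chac1, Slc7a11 and Trib3 (36.4%). Matches in the cytosolic synthetases are shown because the cytosolic and mitochondrial classes are contrasted in everything that follows; Trib3, an ATF4 target, is added for comparison. Each run is given 5′ to 3′ on the strand of its gene, and capitals mark the element, which reads TTNCATCA where it lies on the opposite strand:
Aars, chr8:111033841-111033868, plus strand: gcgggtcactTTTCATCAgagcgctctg
Gars, chr6:55037961-55037988, plus strand: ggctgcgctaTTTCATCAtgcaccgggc
Iars, chr13:49682127-49682154, plus strand: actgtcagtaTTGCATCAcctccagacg
Tars, chr15:11399656-11399683, minus strand: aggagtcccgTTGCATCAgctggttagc
Yars, chr4:129189896-129189923, plus strand: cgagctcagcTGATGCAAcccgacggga
Trib3, chr2:152344029-152344056, minus strand: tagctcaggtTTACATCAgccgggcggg

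In Gars and Tars the match began 30 and 15 bases before the listed start of transcription. The matches shown for Aars, Iars and Yars began at bases 10, 8 and 4 of the transcript. The bases before the start of Aars2, the mitochondrial partner of Aars, are shown as a promoter of the other class; the element is not in this window.
Aars2, chr17:45506582-45506831, plus strand: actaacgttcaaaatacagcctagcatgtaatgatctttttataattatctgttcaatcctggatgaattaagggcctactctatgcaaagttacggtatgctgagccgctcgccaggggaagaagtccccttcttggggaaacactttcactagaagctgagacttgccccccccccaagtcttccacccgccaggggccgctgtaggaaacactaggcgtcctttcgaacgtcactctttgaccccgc

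At 22 °C, 5 of the 19 cytosolic enzymes rose in knockouts and none fell, while 0 of the 16 mitochondrial enzymes passed in either direction (limma, adjusted p under 0.05 over 13079 genes). The background is 1.97% of all genes called, 0.91% higher and 1.06% lower. Without adjustment, p was under 0.05 for 14 cytosolic enzymes and for 2 mitochondrial ones, Aars2 and Ears2, all higher, against 15.8% of all genes in either direction; the mitochondrial count is no more than that background. The 5 are Eprs, Wars, Aars, Cars and Sars, which charge tRNAs for glutamate and proline, tryptophan, alanine, cysteine and serine.

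Eprs (ENSMUSG00000026615) is the 2-function enzyme for glutamate and proline and a core member of the multi-synthetase complex. It had 29.9, 31.7, 33.4 and 25.9 scaled FPKM in the 22 °C controls and 87.0, 68.1, 45.4 and 57.8 in the knockouts. All 4 knockouts lay above all controls, with a log2 fold change of 1.04 (SE 0.18, limma adjusted p = 0.00963), or 2.05-fold. Since the RNA is from whole tissue, more transcript per cell and a changed share of cells that express the gene cannot be told apart, here or for any gene below.

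Wars (ENSMUSG00000021266), the tryptophan enzyme, showed the highest log2 fold change of the 35 at 22 °C. Its control libraries lay close together, at 20.3, 17.9, 18.4 and 18.1 scaled FPKM, and the knockouts were spread over 73.9, 51.8, 27.4 and 34.0. Again no knockout was as low as a control, and the log2 fold change came to 1.18 (SE 0.23, limma adjusted p = 0.022), with a 95% interval of 0.68 to 1.68.

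Aars (ENSMUSG00000031960), for alanine, had 21.2, 17.7, 21.5 and 14.9 scaled FPKM in controls and 48.8, 34.6, 28.6 and 29.9 in knockouts. The groups were apart, with knockout 1 the highest and a log2 fold change of 0.86 (SE 0.17, limma adjusted p = 0.022). Aars shares 1326 exon bases with Exosc6 on the same strand in GENCODE M21, so some of its fragments cannot be assigned with certainty.

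Cars (ENSMUSG00000010755), for cysteine, had 7.00, 6.18, 9.10 and 8.25 scaled FPKM in controls and 17.6, 13.9, 10.4 and 11.1 in knockouts, a log2 fold change of 0.71 (SE 0.15, limma adjusted p = 0.0287). Sars (ENSMUSG00000068739), for serine, had 28.8, 27.6, 34.7 and 27.9 in controls and 80.3, 50.5, 41.9 and 42.8 in knockouts, a log2 fold change of 0.79 (SE 0.18, limma adjusted p = 0.045). Neither gene's groups overlapped. Knockout 1 had the highest value for all 5 called enzymes.

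**Figure D1:**
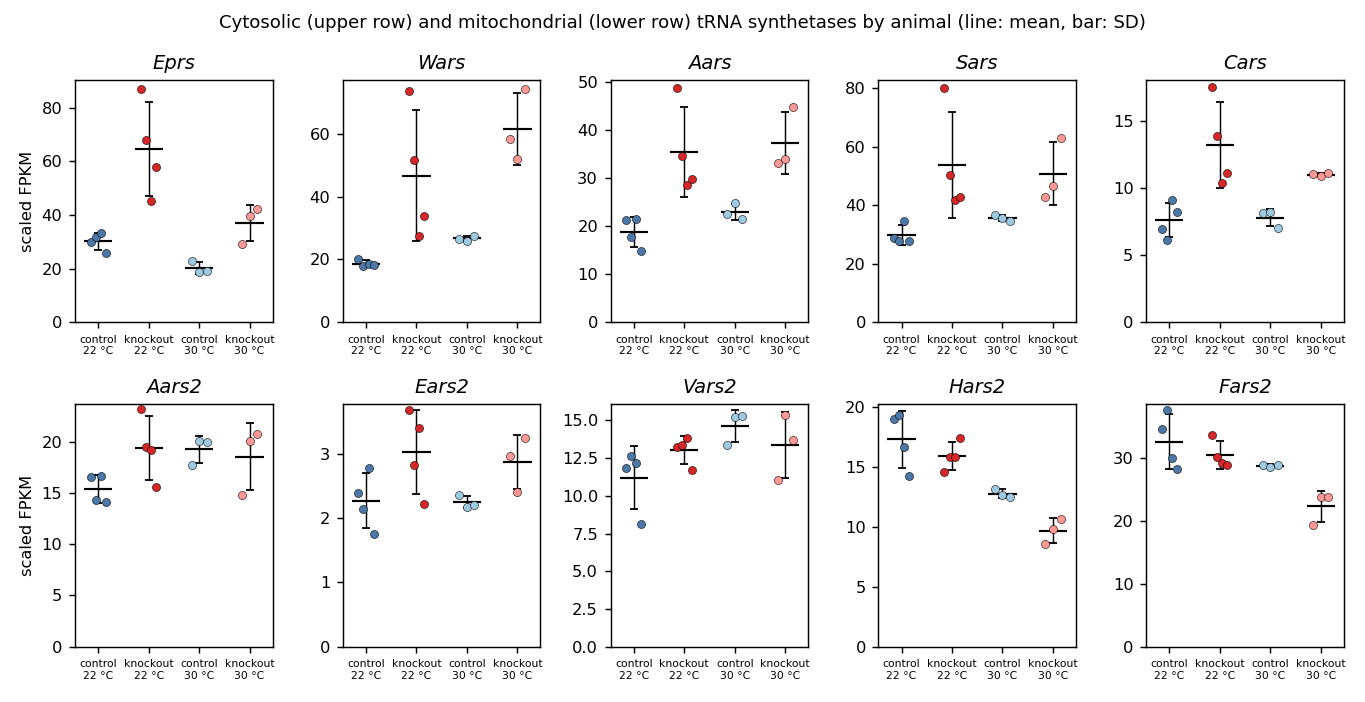
Scaled FPKM (y axis) in each animal of the 4 groups for the 5 cytosolic enzymes called at 22 °C (upper row) and 5 mitochondrial enzymes with the largest changes besides Lars2 (lower row); horizontal lines are group means and bars are SD. In the upper row every knockout at 22 °C lies above every control, whereas for Aars2, Ears2 and Vars2 the 22 °C groups overlap.

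The other 14 cytosolic enzymes did not pass at 22 °C. Of all 19, 16 had a log2 fold change above 0, and the class median was 0.42, against 0.00 for all genes tested. Groups did not overlap, with knockouts higher, for 11 of the 19, against 4.85% of all genes. Yars (tyrosine) was at 0.75 (limma adjusted p = 0.0643) and Nars at 0.59 (0.0543), both with groups apart. At the other end Qars (glutamine) was at -0.16, Kars at -0.11 and Hars (histidine) at -0.03, all with overlapping groups and adjusted p-values of 0.52 to 0.934.

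Counts of called enzymes at 22 °C moved with single libraries. The count was 2, 1 and 2 without controls 1, 2 and 4, and 3 and 1 without knockouts 1 and 2. It rose to 8 without knockout 3. Eprs passed in all 8 such fits, with adjusted p-values up to 0.0466. The adjusted p of Wars was at most 0.0806, without knockout 2, that of Aars 0.073, without knockout 2, that of Cars 0.0979, without knockout 2, and that of Sars 0.12, without knockout 2.

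The mitochondrial median was 0.08 at 22 °C, with 10 of 16 members above 0. Groups overlapped for all 16, whereas they did not for 4.85% (higher) and 4.53% (lower) of all genes. Its 3 largest changes were in Aars2, Ears2 and Vars2 (valine), apart from which members ranged from -0.12 (Lars2) to 0.22 (Tars2, threonine). Aars2 (ENSMUSG00000023938) had 16.5, 14.3, 16.7 and 14.1 scaled FPKM in controls and 23.2, 19.5, 19.2 and 15.6 in knockouts. The groups overlapped in knockout 4, for a log2 fold change of 0.30 (SE 0.13, limma adjusted p = 0.274).

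Ears2 (ENSMUSG00000030871), the mitochondrial glutamate enzyme, had 2.40, 2.15, 2.78 and 1.76 scaled FPKM in controls and 3.67, 2.83, 3.40 and 2.21 in knockouts (log2 fold change 0.30, SE 0.13, limma adjusted p = 0.306). Vars2 (ENSMUSG00000038838) had 11.9, 12.6, 12.2 and 8.15 in controls and 13.2, 13.4, 13.9 and 11.7 in knockouts (log2 fold change 0.22, SE 0.13, limma adjusted p = 0.465). In both genes knockout 4 fell among the controls. A change of the size seen in Eprs lies outside the 95% intervals of these 3 genes, whose upper bounds are 0.58, 0.58 and 0.50.

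**Figure D2:**
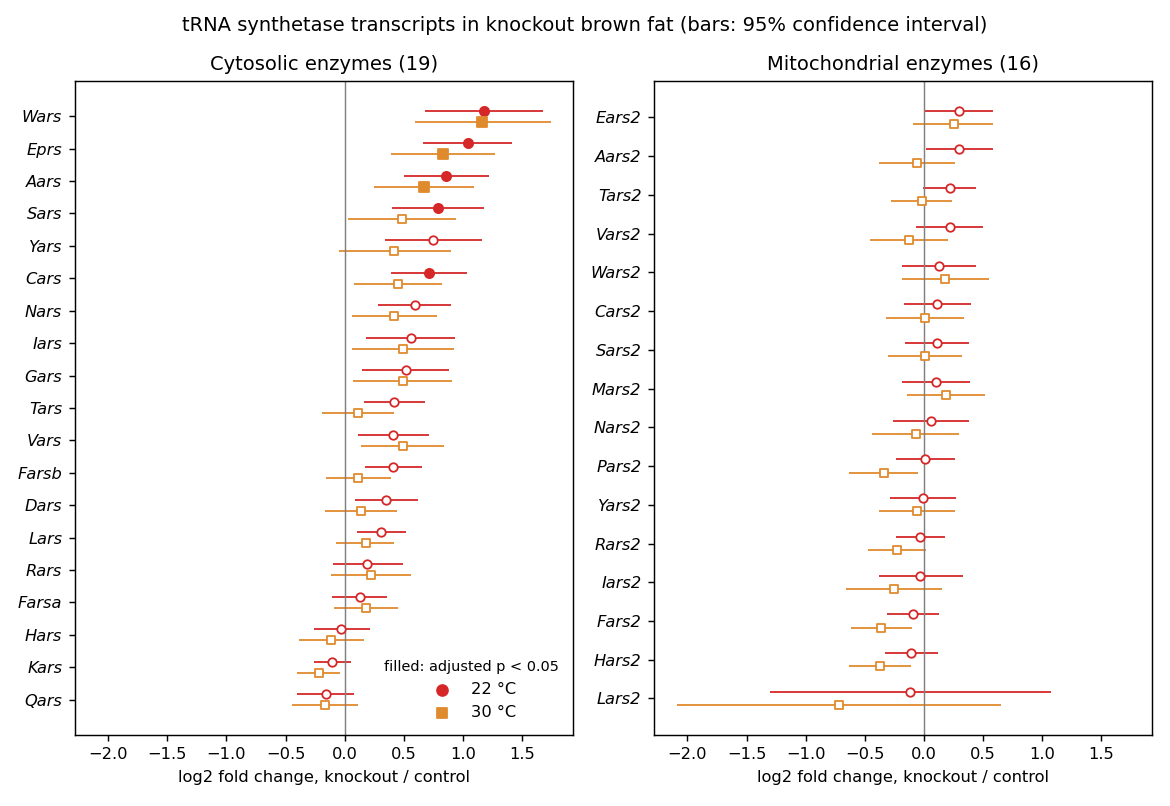
Log2 fold change of knockout over control (x axis, 95% confidence interval as bars) for the 19 cytosolic enzymes (left) and the 16 mitochondrial enzymes (right), at 22 °C (circles) and 30 °C (squares); filled symbols passed an adjusted p of 0.05. Filled symbols are seen for 5 cytosolic enzymes at 22 °C and 3 at 30 °C and for no mitochondrial enzyme, and the interval of Lars2 is the widest.

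At 30 °C, Wars, Eprs and Aars rose in knockouts, 3 of 19 cytosolic enzymes, and no cytosolic enzyme fell. Again 0 of 16 mitochondrial enzymes passed (limma), with 3 lower at an unadjusted p under 0.05 (Hars2, Fars2 and Pars2). Of the cytosolic enzymes 9 were higher and 1 lower at that level, against 28.3% of all genes in either direction. Here 14.1% of all genes were called, 8.82% higher and 5.28% lower, so the cytosolic share is not far from the background.

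Wars had 26.6, 26.1 and 27.5 scaled FPKM in the 30 °C controls and 58.4, 52.1 and 74.5 in the knockouts. The knockouts were far above the controls, with a log2 fold change of 1.16 (SE 0.27, limma adjusted p = 0.0126). Eprs had 22.8, 18.6 and 19.2 in controls and 29.2, 39.5 and 42.2 in knockouts (log2 fold change 0.83, SE 0.20, limma adjusted p = 0.0165). Aars had 22.6, 24.9 and 21.4 in controls and 33.2, 33.9 and 44.9 in knockouts (log2 fold change 0.67, SE 0.19, limma adjusted p = 0.0364). All 3 genes had groups apart, as at 22 °C.

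Cars and Sars did not pass at 30 °C, although their groups did not overlap. Cars had 8.16, 8.21 and 7.07 scaled FPKM in controls and 11.1, 10.9 and 11.1 in knockouts (log2 fold change 0.45, limma adjusted p = 0.0966). Sars had 36.7, 35.6 and 34.7 in controls and 42.8, 46.7 and 63.2 in knockouts (0.48, limma adjusted p = 0.152). The class median was 0.42 at 30 °C, with 16 of 19 above 0, against 0.06 for all genes. Groups were apart and higher in knockouts for 10 of 19 (22.2% of all genes), and apart and lower for Kars and Qars (14.6% of all genes). Without control 2, control 3 or knockout 3 the count of called cytosolic enzymes was 1, 1 and 0, and without control 1 or knockout 1 it was 2. The 22 °C animals share the estimate of spread, and without knockout 1 at 22 °C the count was 6. Without knockout 3 the class median was 0.26 and the adjusted p-values were 0.0576 for Wars, 0.0741 for Eprs and 0.149 for Aars.

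The mitochondrial median at 30 °C was -0.07, with 5 of 16 above 0. Its sign depended on the scaling: it was 0.18 with FPKM as deposited and 0.06 with libraries set to the same nuclear total. Groups did not overlap, with knockouts lower, for 4 of 16 members (14.6% of all genes) and, with knockouts higher, for Ears2 and Mars2 (22.2% of all genes). Hars2 (ENSMUSG00000019143), for histidine, was one of the 4, with 13.2, 12.7 and 12.5 scaled FPKM in controls and 8.55, 9.85 and 10.6 in knockouts (log2 fold change -0.37, SE 0.12, limma adjusted p = 0.0567). Fars2 (ENSMUSG00000021420) had 28.9, 28.5 and 28.8 in controls and 19.4, 23.7 and 23.7 in knockouts (-0.36, SE 0.12, limma adjusted p = 0.0603). Both lie just outside the threshold; they passed under 1 or more alternatives, listed with the other settings. Rars2 (arginine) and Lars2 were the others whose knockouts were all lower. Without knockout 2, Pars2 passed, and the mitochondrial count was 1; without control 4 at 22 °C, which shares the estimate of spread, it was 2 (Hars2 and Fars2).

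Hars2 lies head to head with its cytosolic counterpart Hars, and they share 195 exon bases on opposite strands. Fars2 shares 501 with Nrn1 and 115 with Lyrm4, and Iars2 shares 2034 with Rab3gap2, all on opposite strands. The use of strand in counting is not stated, so such fragments cannot be told apart.

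No member's knockout effect was shown to differ between the temperatures. The adjusted p-values of that difference ran from 0.438 (Pars2) to 0.991 (Qars and Wars), and 0 of 13079 genes passed (limma), with 1694 at an unadjusted p under 0.05.

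The contrast between compartments can be read within each library, where the scaling cancels. For 13 amino acids a cytosolic gene was paired with the mitochondrial one of the same symbol plus 2 (Farsa with Fars2), and the log2 ratio of their deposited FPKM was taken in each animal. Eprs, which serves glutamate and proline, was not paired with Ears2 or Pars2, nor was Farsb paired. The knockout mean exceeded the control mean in 13 of 13 pairs at both temperatures, by a median of 0.53 at 22 °C (0.09 to 1.04) and 0.54 at 30 °C (0.14 to 0.95). The groups did not overlap for 3 pairs at 22 °C and for 10 at 30 °C, all higher in knockouts. No share over other gene pairs was computed. Of single genes, 4.85% were apart and higher in knockouts at 22 °C (4.53% lower). At 30 °C, with fewer animals, 22.2% were apart and higher (14.6% lower). The 22 °C and 30 °C pair counts therefore cannot be compared directly. They carry no p-value, since the members share libraries and controls.

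The pair for tryptophan, Wars and Wars2, had the largest shift at 22 °C. Its log2 ratio was 2.53, 2.87, 2.97 and 3.18 in controls and 4.41, 4.19, 3.41 and 3.70 in knockouts, a shift of 1.04 with groups apart. The alanine pair, Aars and Aars2, had ratios of 0.36, 0.31, 0.36 and 0.08 in controls and 1.07, 0.83, 0.58 and 0.94 in knockouts, a shift of 0.58. The serine pair, Sars and Sars2, had 1.29, 1.37, 1.60 and 1.35 in controls and 2.41, 2.02, 1.85 and 2.09 in knockouts, a shift of 0.69. In these 3 pairs every knockout ratio lay above every control ratio at both temperatures, and the 30 °C shifts were 0.92, 0.76 and 0.48.

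The smallest shift was that of the histidine pair at 22 °C and of the threonine pair at 30 °C. Hars over Hars2 shifted by 0.09 at 22 °C, with overlapping groups, and by 0.29 at 30 °C, with groups apart. Tars over Tars2 shifted by 0.21 and 0.14, with overlap at both temperatures.

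Averaged on the log2 scale, the cytosolic class was 4.38, 4.33, 4.47 and 4.20 in 22 °C controls and 5.11, 4.85, 4.60 and 4.69 in knockouts. At 30 °C it was 4.41, 4.42 and 4.38 in controls and 4.64, 4.67 and 4.90 in knockouts. Knockouts were above controls at both temperatures. The mitochondrial class without Lars2 was 3.48, 3.42, 3.34 and 3.08 in 22 °C controls and 3.50, 3.39, 3.43 and 3.35 in knockouts, with overlap. At 30 °C it was 3.20, 3.29 and 3.25 in controls and 3.0, 3.21 and 3.29 in knockouts, again with overlap.

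The difference of the class means within a library, without Lars2, was 0.90 to 1.13 in 22 °C controls and 1.17 to 1.62 in knockouts. At 30 °C it was 1.13 to 1.21 in controls and 1.46 to 1.65 in knockouts, so groups were apart at both temperatures. With Lars2 included the 22 °C groups overlapped, at 0.68 to 0.93 and 0.88 to 1.36. Knockout 3 is the library that overlaps. It has the highest Lars2 of the 22 °C knockouts and also their lowest cytosolic mean, 4.60. Without Lars2 its difference was 1.17, close to the highest 22 °C control at 1.13.

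**Figure D3:**
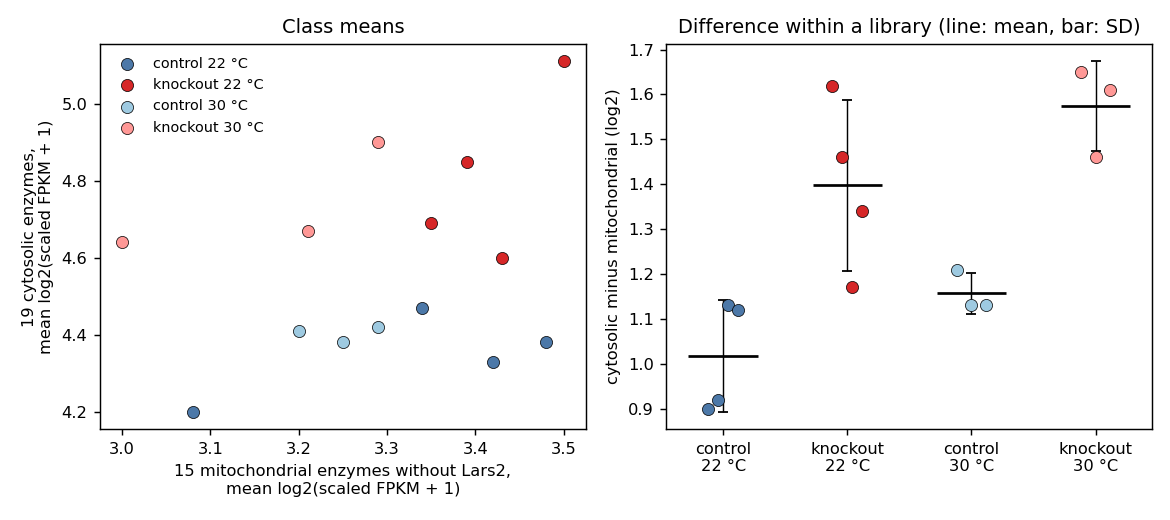
Left, mean log2(scaled FPKM + 1) of the 19 cytosolic enzymes (y axis) against that of the 15 mitochondrial enzymes without Lars2 (x axis), 1 point per animal; right, their difference within each library, with group mean and SD. Knockouts sit above controls of their temperature on the y axis in the left panel and overlap with them on the x axis.

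Enzymes of the multi-synthetase complex and those outside it were both represented. Of 7 complex members, Eprs passed at 22 °C and the median log2 fold change was 0.31; of 12 others, 4 passed and the median was 0.56. At 30 °C, 1 of 7 and 2 of 12 passed, with medians of 0.18 and 0.44. Of all genes, 1.97% were called at 22 °C and 14.1% at 30 °C, so the 30 °C counts are near the background. The complex scaffolds Aimp1, Aimp2 and Eef1e1 did not pass at either temperature, with log2 fold changes of -0.13 to 0.27. By catalytic fold, 2 of 8 class I and 2 of 10 class II cytosolic enzymes passed at 22 °C, Eprs having a domain of each.

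Both called and uncalled enzymes held the promoter element, and both lacked it. Log2 fold changes at 22 °C were 0.42 to 0.86 for the 5 with it (median 0.56) and -0.16 to 1.04 for the 7 without it (median 0.35). Eprs and Sars, both called, are among the 7. At 30 °C the ranges were 0.11 to 0.67 (median 0.49) and -0.22 to 0.83 (median 0.14). Cars, Hars, Lars, Nars, Rars, Vars and Wars, as well as Hars2 and Pars2, had no entry.

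Genes of the ATF4 pathway rose in the same knockouts, as listed reference genes: 6 of 11 tested at 22 °C and 7 of 11 at 30 °C, with medians of 1.37 and 1.22. They were listed with this increase already known, so it is no separate support. Only Atf4, Trib3 and Asns are described singly, and the mean of the list in knockouts is given below. Atf4 had 48.8, 52.3, 58.2 and 59.7 scaled FPKM in 22 °C controls and 239, 147, 106 and 111 in knockouts (log2 fold change 1.37, SE 0.24, limma adjusted p = 0.0128). Trib3, a kinase-like inhibitor of ATF4 signalling, rose by 3.97 (SE 0.37, limma adjusted p = 4.16e-05) and 3.46 (SE 0.43, limma adjusted p = 0.000448). Asns, the asparagine synthetase that makes the amino acid used by Nars, was at 0.58 (limma adjusted p = 0.131) and 0.30 (0.398).

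The animal with the highest cytosolic mean at each temperature also had the highest mean of these ATF4 genes. Knockout 1 at 22 °C had 5.11 for the cytosolic class and 5.07 for the ATF4 genes, against 4.60 to 4.85 and 4.39 to 4.97 in the other knockouts. Knockout 3 at 30 °C had 4.90 and 5.31, against 4.64 to 4.67 and 4.86 to 4.91. The same animals also had the highest mitochondrial mean without Lars2 among the knockouts of their temperature. It was 3.50 against 3.35 to 3.43 at 22 °C, and 3.29 against 3.0 to 3.21 at 30 °C. The match is therefore not particular to the cytosolic class. Knockouts 3 and 4 at 22 °C were in opposite order, with cytosolic means of 4.60 and 4.69 and ATF4 means of 4.46 and 4.39. A link was not tested.

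Genes of the steps next to tRNA charging in mitochondria passed in small numbers, to be read against the 1.06% of all genes called lower at 22 °C and the 5.28% at 30 °C. Mitochondria charge glutamine tRNA by converting glutamate on the tRNA, and Gatb, a subunit of the converting enzyme, fell by 0.64 at 30 °C (SE 0.15, limma adjusted p = 0.0128), 1 of 4 genes of that group. Hsd17b10, a subunit of mitochondrial RNase P that trims tRNA precursors, fell by 0.64 at 22 °C (SE 0.10, limma adjusted p = 0.00545) and by 0.86 at 30 °C (SE 0.11, limma adjusted p = 0.000772). Its 22 °C values were 219, 189, 185 and 216 scaled FPKM in controls and 139, 113, 138 and 128 in knockouts. Of 15 tRNA processing and modification genes tested, only Trit1, which modifies an adenosine beside the anticodon, passed besides Hsd17b10, falling by 0.74 at 30 °C (SE 0.15, limma adjusted p = 0.00667). Tufm, the elongation factor that carries charged tRNA to the mitochondrial ribosome, fell by 0.63 at 30 °C (SE 0.14, limma adjusted p = 0.00977), the only 1 of 10 mitochondrial translation factors called. All 10 were below 0 at 30 °C, with a median of -0.25 against 0.06 for all genes. At 22 °C, 6 of these 10 were below 0, with a median of -0.01. Among 7 cytosolic elongation factors and 6 tested genes of tRNA proofreading and release, 0 passed in either knockout comparison (limma). At an unadjusted p under 0.05 there were 0 of the elongation factors, and of the proofreading and release genes 2 lower at 22 °C and 1 higher at 30 °C, where 15.8% and 28.3% of all genes lay under it.

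Most macrophage and fibroblast markers were called higher in knockouts at 30 °C. At 22 °C no listed marker of a type other than brown adipocytes was called. The summed level of the 12 macrophage markers was 59.4 to 87.6 scaled FPKM in 22 °C controls, 99.4 to 222 in 22 °C knockouts, 128 to 438 in 30 °C controls and 682 to 2110 in 30 °C knockouts. The 12 brown adipocyte markers summed to 17800 to 23500, 14200 to 18500, 13000 to 16100 and 7250 to 9230 in the same order, with Fabp4 the largest term. At 22 °C 6 of the 12 were above 0, with a median log2 fold change of 0.11, and Ppargc1a passed as higher and Adipoq as lower. At 30 °C 10 of 12 were below 0, the median was -0.44, and 5 passed, all lower. Of the macrophage markers 0 of 12 passed at 22 °C in limma (without adjustment, p was under 0.05 for 4 that were higher and 1 that was lower) and 11 of 12, all higher, at 30 °C. Fibroblast markers summed to 178 to 223, 146 to 288, 237 to 270 and 429 to 854, with 0 of 6 called at 22 °C in limma and 5 of 6, all higher, at 30 °C. Endothelial markers summed to 128 to 289, 153 to 226, 296 to 303 and 679 to 755. The last of these sums was set by Cldn5 (mean 104 in 30 °C controls and 547 in knockouts), since the other 5 were below 0 and the list's median was -0.26. Lymphocyte markers summed to 2.54 to 5.9, 3.01 to 5.93, 8.08 to 19.1 and 10.8 to 41.6, and skeletal muscle markers ran from 75.2 to 15400 over the 14 libraries. Their part in the synthetase values was not tested. At 22 °C the cytosolic means of knockouts 1 to 4 were 5.11, 4.85, 4.60 and 4.69, beside macrophage sums of 105, 222, 99.4 and 139. At 30 °C those of knockouts 1 to 3 were 4.64, 4.67 and 4.90, beside sums of 2110, 682 and 1040.

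Both classes differed in a mixed way between the housing temperatures, which cannot be told apart from sex-linked expression in these animals. Between 22 °C and 30 °C, 38.8% of all genes were called in controls (18.2% higher and 20.6% lower at 22 °C) and 51.1% in knockouts (21.8% and 29.4%). Of the cytosolic enzymes 2 rose and 3 fell at 22 °C in controls, and 3 rose and 3 fell in knockouts. Of the mitochondrial enzymes 5 rose and 2 fell in controls, and 6 rose and 1 fell in knockouts. The class medians were -0.06 and 0.20 in controls and 0.07 and 0.26 in knockouts, against -0.05 and -0.07 for all genes. Groups did not overlap for 2 cytosolic and 5 mitochondrial enzymes higher at 22 °C in controls (19.9% of all genes) and for 4 of each class lower (23.6%). In knockouts this held for 2 cytosolic and 6 mitochondrial enzymes higher (24% of all genes), and for 3 cytosolic and 0 mitochondrial enzymes lower (31.7%).

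Among cytosolic enzymes, Gars and Eprs were higher and Vars, Kars and Farsa lower at 22 °C in both genotypes; Dars (aspartate) was also higher in knockouts. Vars had 10.7, 12.2, 16.3 and 13.4 scaled FPKM in 22 °C controls and 25.1, 25.6 and 24.8 in 30 °C controls. The groups were far apart, with a log2 fold change of -0.90 (SE 0.15, limma adjusted p = 0.00117), and of -0.98 in knockouts (SE 0.15, limma adjusted p = 0.000289). Gars differed by 0.61 (SE 0.18, limma adjusted p = 0.0191) and 0.64 (SE 0.18, limma adjusted p = 0.0107). Farsa and Farsb are the subunits of the phenylalanine enzyme; Farsa was at -0.33 (limma adjusted p = 0.0422) in controls and Farsb at -0.06 (0.702).

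Among mitochondrial enzymes, Lars2, Iars2, Nars2, Hars2 and Rars2 were higher and Sars2 lower at 22 °C in both genotypes. Iars2 had 43.8, 44.3, 34.6 and 23.9 scaled FPKM in 22 °C controls and 22.4, 23.4 and 21.2 at 30 °C. Control 4 at 22 °C lay just above the 30 °C animals. Iars2 differed by 0.65 (SE 0.18, limma adjusted p = 0.012) in controls and 0.88 (SE 0.18, limma adjusted p = 0.00139) in knockouts. Sars2 had 11.8, 10.7, 11.4 and 10.9 in 22 °C controls and 17.7, 18.9 and 17.9 at 30 °C (log2 fold change -0.65, SE 0.14, limma adjusted p = 0.00316). Pars2 was lower in controls (-0.41, limma adjusted p = 0.0197), and Fars2 was higher in knockouts (0.44, limma adjusted p = 0.0057).

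Vars, Hars2, Iars2, Lars2 and Sars2 kept their calls in both genotypes under all 16 alternatives run for each. The count of called cytosolic enzymes in controls was 2, 2, 3, 3 and 2 without control 1 or 2 at 22 °C and without control 1, 2 or 3 at 30 °C. It was 6 without knockout 1 at 22 °C. The mitochondrial count in controls was 4 without control 2 at 30 °C. In knockouts the cytosolic count was 2 and 3 without knockout 1 or 3 at 30 °C. The sex-linked difference named above moves with temperature in all 14 animals.

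**Figure D4:**
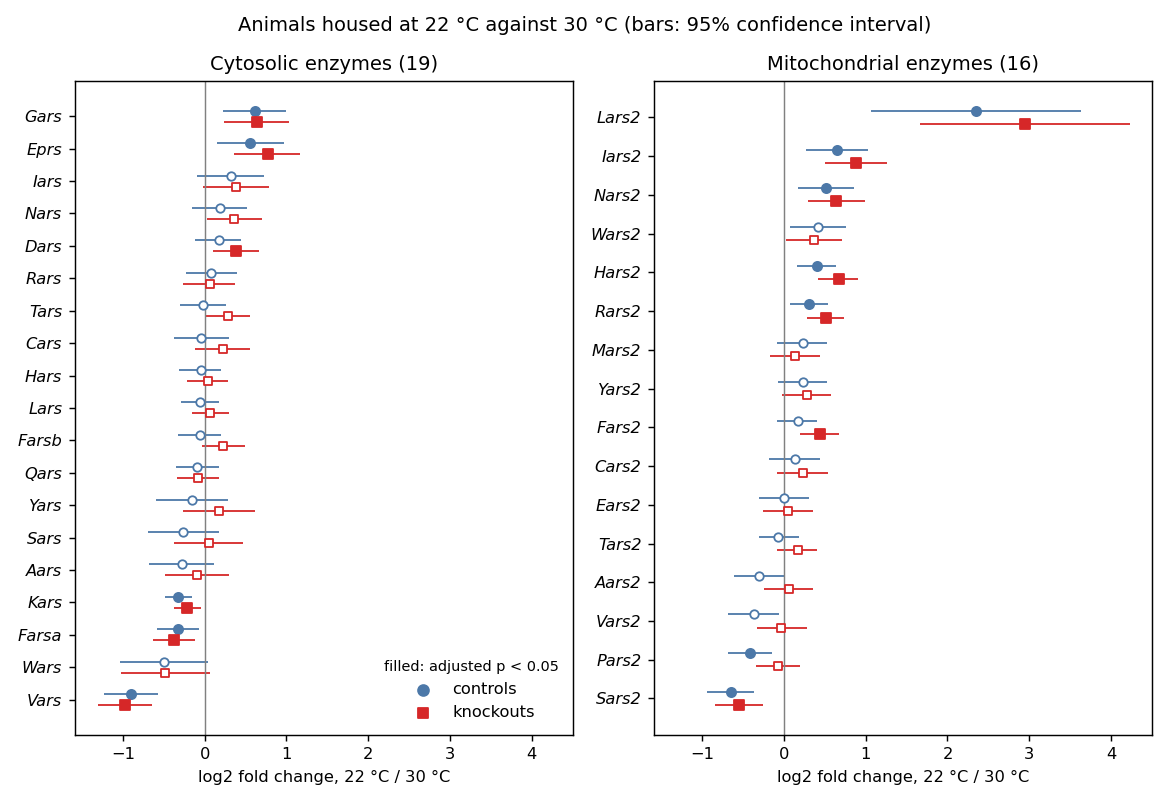
Log2 fold change of 22 °C over 30 °C (x axis, 95% confidence interval as bars) for cytosolic (left) and mitochondrial (right) enzymes in controls (circles) and knockouts (squares); filled symbols passed an adjusted p of 0.05. Vars lies lowest among cytosolic enzymes, and Lars2 lies highest among mitochondrial ones with wide intervals.

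Lars2 (ENSMUSG00000035202), which charges mitochondrial leucine tRNA, was the most variable member. It had 138, 129, 85.7 and 485 scaled FPKM in 22 °C controls and 199, 238, 263 and 42.5 in 22 °C knockouts. At 30 °C it was steady within groups, at 31.3, 31.7 and 31.9 in controls and 18.1, 20.2 and 18.1 in knockouts. Every 22 °C library was above every 30 °C library of its genotype. The temperature difference was 2.35 (SE 0.59, limma adjusted p = 0.00861) in controls and 2.95 (SE 0.59, limma adjusted p = 0.0014) in knockouts. The knockout difference was -0.12 (SE 0.55, limma adjusted p = 0.942) at 22 °C and -0.72 (SE 0.64, limma adjusted p = 0.504) at 30 °C.

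Of 13078 other genes tested, the 1 whose log2 values were most like those of Lars2 over the 14 libraries was Gm42418, a predicted gene known to overlap a ribosomal RNA repeat. Pearson's r was 0.957, given as a description, since the libraries fall into groups and share their depth; the next gene, Akap8, had 0.906. Gm42418 had 1371, 1673, 1113 and 8945 scaled FPKM in 22 °C controls and 3754, 5080, 5075 and 739 in 22 °C knockouts. It was at 516, 371 and 470 in 30 °C controls and at 632, 414 and 466 in 30 °C knockouts. The library with the highest Lars2, control 4 at 22 °C, also had the highest Gm42418, and the lowest Lars2 among 22 °C libraries, in knockout 4, came with the lowest Gm42418 of those 8. Whether ribosomal RNA fragments contribute to the Lars2 value was not tested.

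**Figure D5:**
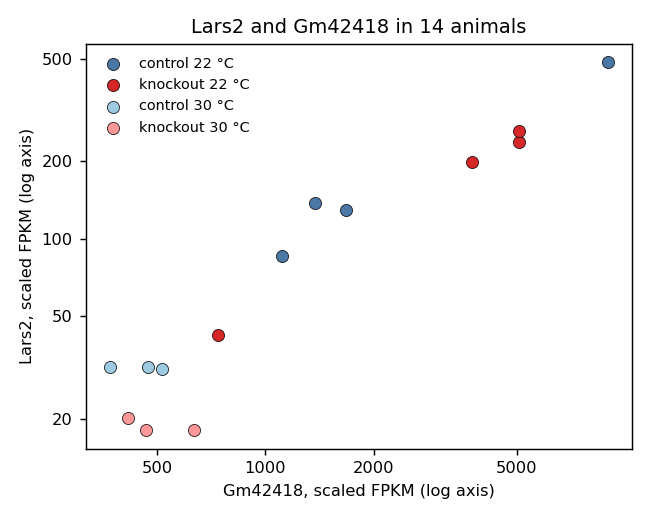
Scaled FPKM of Lars2 (y axis, log scale) against that of Gm42418 (x axis, log scale), 1 point per animal, coloured by group. Control 4 at 22 °C is the upper right point, and the 6 animals at 30 °C lie in the lower left corner, with Lars2 lower in knockouts than in controls.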

How the data were processed

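The authors deposited gene values as FPKM, 1 column per animal, with Ensembl identifiers; per the submitters' processing notes the build was mm9. Aligner, counter, annotation and strand use are not given in the sources used here. Identifiers were matched to GENCODE M21 (34490 of 35275). Depth was recovered from low values of genes with 1 transcript, of which 90.8% to 92.5% fell on whole reads within 0.05; fragment numbers cover counting error only. Libraries were scaled by the median ratio over 10049 nuclear genes (factors 1.05 to 1.20 in knockouts, 0.823 to 0.947 in controls). Genes with at least 1 FPKM in at least 3 samples were kept. Log2(scaled FPKM + 1) was fitted with limma 3.58.1 (R 4.3.3; 4 group means, 14 samples, eBayes with trend), with Benjamini-Hochberg adjustment over 13079 genes and a threshold of 0.05. The script was tested on simulated data. The members and lists were chosen with earlier results of these data known. Given by sample are members called in a knockout comparison or among the 3 largest changes of their class, and pathway genes called; members of the temperature comparison, Asns, Gm42418 and the pairs shown were chosen after their values were seen. 1 window of 28 bases is shown per gene, around the match nearest its start. Tables and plots used Python 3.11.15, pandas 2.3.3 and matplotlib 3.10.9.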

Additional observations from a re-analysis of the deposited data

Results flagged for a closer look

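Of 70 groups of 4 animals examined, 1 for each enzyme and genotype at 22 °C, 2 held a library far from the other 3, its gap to the nearest divided by the range being above Dixon's 95% critical value; chance gives about 1 in 20. Sars was at 34.7 scaled FPKM in control 3, against 27.6 to 28.8 in the others (gap over range 0.84). Lars2 was at 485 scaled FPKM in control 4, against 85.7 to 138 (gap over range 0.87). Without control 4 the temperature difference of Lars2 in controls kept its call.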

How the results depend on the processing

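The gap between the class medians kept its direction under every alternative run: it was 0.26 to 0.45 at 22 °C (0.34 as reported) and 0.41 to 0.59 at 30 °C (0.49). Counts of called enzymes depended on the processing; the cause was not tested except where fewer samples or genes enter. At 22 °C, 5 cytosolic enzymes were called; no filter on low values gave 2, FPKM as deposited 16, the same total over nuclear genes 11, sample weights 10, leaving out the 2 controls whose titles begin with R 2, and a fit to the compared groups alone 1. Leaving out 1 animal gave 1 to 8 cytosolic enzymes. The mitochondrial count was 5 with FPKM as deposited, all higher, and 0 otherwise. At 30 °C (3 cytosolic, 0 mitochondrial), FPKM as deposited gave 15 and 1, the same total 9 cytosolic, sample weights 11 and 3, a fit to the compared groups 5 and 1, quantile normalization 3 mitochondrial, a mean FPKM of at least 5 gave 1 mitochondrial and no R controls 2 mitochondrial; leaving out 1 animal of the compared groups gave 0 to 4 and 0 to 1, and 1 of all 14 gave 0 to 6 and 0 to 2. Mitochondrial calls at 30 °C were lower in knockouts, Hars2, Fars2, Pars2 or Lars2, except Ears2, higher, with FPKM as deposited. With FPKM as deposited the median of all genes was shifted by 0.24 at 22 °C and 0.31 at 30 °C, and the class medians were 0.70 and 0.71 (cytosolic) and 0.29 and 0.18 (mitochondrial). Other mitochondrial medians at 30 °C were -0.21 with quantile normalization and 0.06 with the same total; the cytosolic median was 0.26 to 0.45 over 30 °C animals left out. For temperature in controls, no filter gave 3 cytosolic enzymes and so did the class without Gars and Kars, sample weights gave 13 mitochondrial enzymes, and leaving out the R controls gave a mitochondrial median of 0.35 and a class difference of -0.41. Leaving out 1 animal of the compared groups gave 2 to 4 cytosolic and 4 to 9 mitochondrial enzymes in controls (2 to 6 and 4 to 9 over all 14 animals), and 2 to 7 cytosolic enzymes in knockouts. For temperature in knockouts, quantile normalization gave 11 mitochondrial enzymes and a median of 0.40. No paired analysis was possible because the animals carry individual identifiers and no shared replicate numbers.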
